A study of Mus musculus with 10 samples.

Results

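Spi1, Irf8, Cebpa, Cebpb, Cebpd, Id2 and Gfi1 are 7 transcriptional regulators that are best known from myeloid cells and from the choice between lymphoid and myeloid fates. They were taken by name out of 30205 genes, a choice made with earlier results of these data known, and all 7 were among the 15583 genes expressed well enough to be tested. The 10 RNA-seq libraries, made from sorted B lineage cells of mice of the C57BL/6 strain, form 5 groups of 2 and belong to a study of joint NF-kB and Notch activation, B cell transformation and conversion of B cells toward the myeloid lineage.

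The control group was wild type. The NF-kB-activated group carried Rosa-NIKdeltaT3flSTOP, an allele of the kinase NIK, with CD19Cre. The Notch-labelled group carried Rosa-Notch2ICN, an allele of the intracellular part of Notch2, with CD19Cre. The doubly activated group carried both Rosa alleles with CD19Cre, as did the lymphoma group. CD19Cre is active in the B lineage, so the alleles are meant to act in cells that have already entered it. The labels call the cells of 3 groups (control, NF-kB-activated, doubly activated) precursors of marginal zone B cells, those of the Notch-labelled group marginal zone B cells, all 4 from lymph node, and those of the last group lymphoma cells. In the Notch-labelled group the labelled cell type and the allele therefore cannot be told apart. Age and sex are not given in the sources used here, and nothing states that libraries of 1 group are from different animals, so the p-values cover the spread among these libraries and no more.

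The ETS factor PU.1, encoded by Spi1, is needed by both B cells and macrophages, and its dose is known to weigh on the choice between them. IRF8 binds DNA together with PU.1 and serves in B cells, dendritic cells and monocytes. C/EBP alpha drives granulocyte and monocyte programmes, and forced expression of C/EBP alpha or C/EBP beta can turn B cells into macrophages. C/EBP delta is a stress and acute phase member of the same family. ID2 blocks E proteins, the basic helix-loop-helix factors on which B cell identity depends. GFI1 is a zinc finger repressor of neutrophil, lymphoid and stem cells.

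The promoters of Gfi1 and Irf8 are shown because these genes had opposite differences between the Notch-labelled and the control libraries, and because each window holds letters of a factor in the set. Each is the 250 bases before a RefSeq start (GRCm38.p6), 5′ to 3′ on the gene's strand, with matches in capitals. Gfi1 lies at chr5:107725806-107726055 on the minus strand and Irf8 at chr8:120736108-120736357 on the plus strand.
Gfi1: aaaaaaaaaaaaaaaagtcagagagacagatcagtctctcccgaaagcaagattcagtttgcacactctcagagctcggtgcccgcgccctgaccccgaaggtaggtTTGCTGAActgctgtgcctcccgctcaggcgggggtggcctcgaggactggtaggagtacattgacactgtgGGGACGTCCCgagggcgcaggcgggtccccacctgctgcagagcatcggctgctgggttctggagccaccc
Irf8: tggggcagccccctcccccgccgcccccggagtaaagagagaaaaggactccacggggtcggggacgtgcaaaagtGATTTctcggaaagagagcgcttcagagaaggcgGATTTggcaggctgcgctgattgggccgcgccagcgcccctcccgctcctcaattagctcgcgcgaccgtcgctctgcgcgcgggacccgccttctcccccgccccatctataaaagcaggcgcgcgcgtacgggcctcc
In the Gfi1 window the first capitals match TTGCNNAA, a C/EBP motif, at 143 bases before this RefSeq start, and the second match the kappa B consensus of NF-kB at 71 bases before it, where the letters read the same on both strands. The GENCODE span of Gfi1 used for the counts (chr5:107716657-107726036) starts further upstream. Most of this window, with both matches, therefore lies inside that span and downstream of its first base. In the Irf8 window the capitals are AAATC, the core that GFI1 recognises, read on the other strand at 174 and 140 bases before the start. Both strands of 7 windows from 5 of the 7 genes were searched for TTGCNNAA, GAGGAAG (PU.1), TGGGAA (RBPJ, the DNA-binding partner of Notch), AAATC and the kappa B consensus. The matched motifs do not overlap one another in these 2 windows. A second Irf8 window, at chr8:120738389-120738638, holds TGGGAA at 242 and AAATC at 225 bases before its own start, both read on the other strand. The second Gfi1 window and those of Cebpa, Cebpb and Id2 hold none of these letters. Of 32851 windows of the same length, TTGCNNAA is in 9.56%, GAGGAAG in 10.6%, TGGGAA in 21.6%, AAATC in 32.7% and the kappa B consensus in 7.25%. A match is a run of letters and not a measured binding site. Windows for Spi1 and Cebpd were not in the table used.

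Libraries held 16380889 to 23102081 estimated counts. The Notch-labelled and lymphoma libraries stood apart from the rest. Correlations of log2(CPM + 1) over the tested genes were 0.989 to 0.995 within groups and 0.968 to 0.983 among the 3 precursor groups, but 0.865 to 0.892 for pairs of a Notch-labelled library with any other. One immunoglobulin heavy chain V segment held 92.1% to 93.8% of all V segment counts in each of these 4 libraries and 4.99% to 7.29% in the other 6, and it was Ighv1-55 in the Notch-labelled and Ighv1-11 in the lymphoma libraries. The 2 libraries of each of these groups thus shared their dominant segment. Whether they hold 1 clone sampled 2 times was not tested, so they may not stand for separate cell populations. Map3k14, the gene of NIK, rose in NF-kB-activated against control libraries (log2 0.91 ± 0.10, adjusted p = 5.98e-05). Counts of Notch2 went against the Notch label, at 284 and 278 CPM (gene counts relative to the library total) there against 651 and 689 in control, although Heyl, a known Notch target, was at 50.9 and 44.0 CPM there against 0.430 and 0.381. Notch2 was lower still in lymphoma, at 155 and 178 CPM (log2 -2.01 ± 0.09 against control, adjusted p = 2.50e-09), and doubly activated libraries, at 702 and 752 CPM, did not differ detectably from control (0.12 ± 0.08, adjusted p = 0.376). The gene total does not separate the transgene from the endogenous gene. The summed level of 8 B cell markers, all of them detected in these libraries, was 2268 to 2444 CPM in Notch-labelled and 3901 to 4099 CPM in lymphoma libraries against 8607 to 10433 CPM in the other 6. Ddx3y, a Y-linked gene, was at 59.7 and 0.652 CPM in the 2 control libraries, 173 and 178 CPM with NF-kB activation, 2.40 and 1.88 CPM in the Notch-labelled pair, 109.5 and 186 CPM with double activation and 144 and 154 CPM in lymphoma. It thus differed within control and between the groups compared, and the part of sex in the results was not tested.

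**Figure D1:**
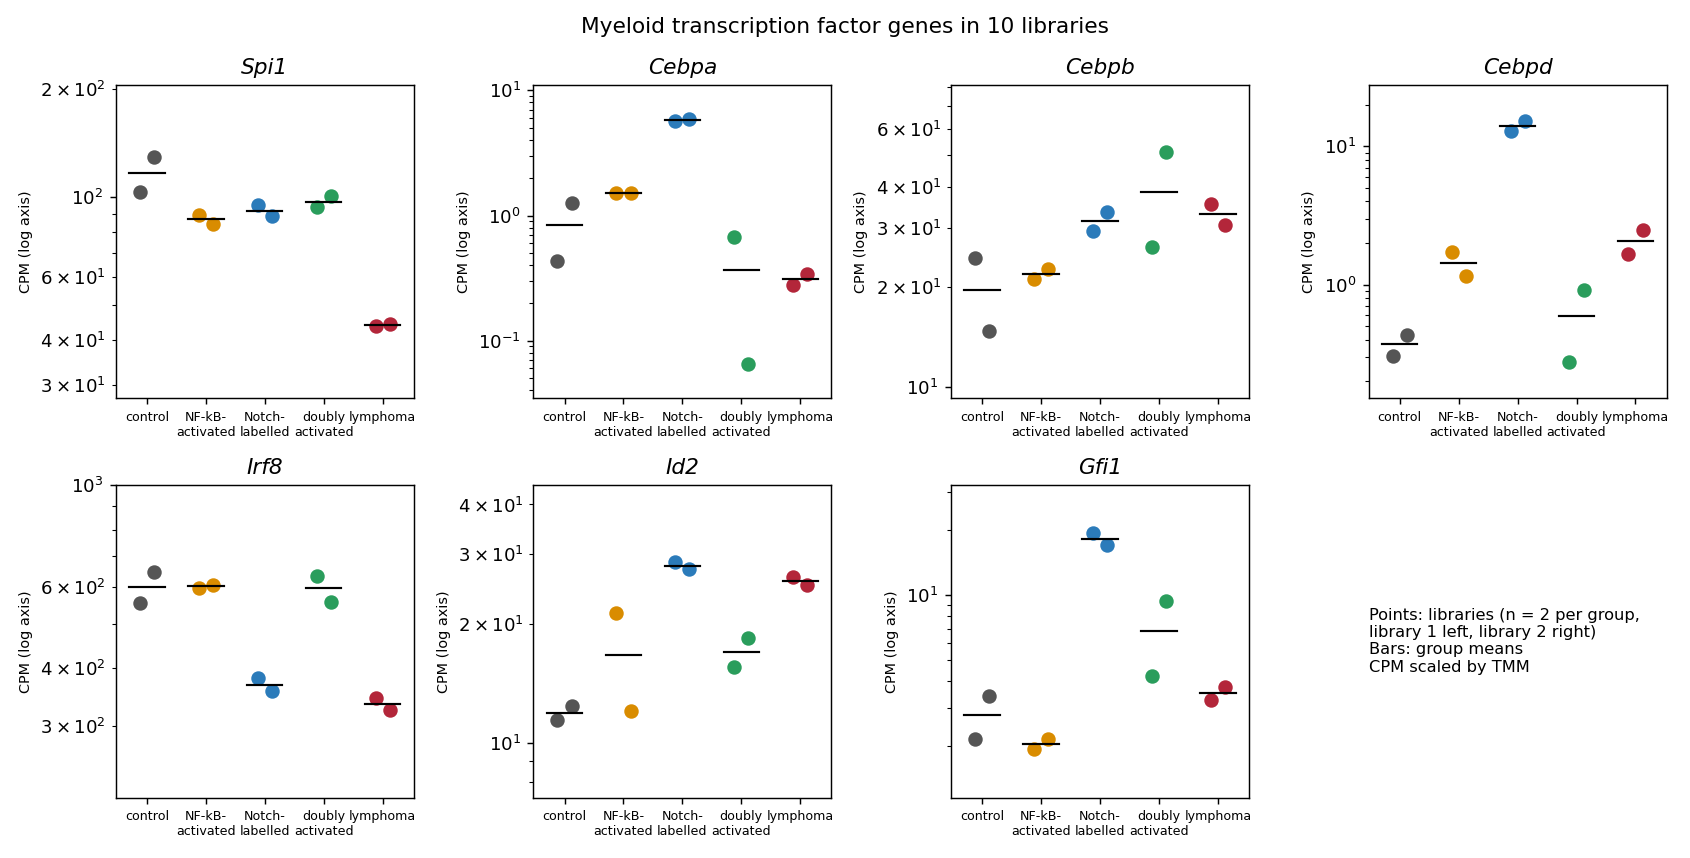
Level of each of the 7 regulators in CPM (log axis) in each library, by group, with points for the 2 libraries and a bar at their mean. Spi1 is lowest in lymphoma libraries, Irf8 is lower in Notch-labelled and lymphoma libraries than in the other groups, and Cebpa, Cebpd and Gfi1 are highest in Notch-labelled libraries.

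Spi1 (ENSMUSG00000002111, chr2:91082390-91115756, plus strand, GRCm38) fell in lymphoma libraries against all 4 other groups. Control libraries had 103 and 129.9 CPM, NF-kB-activated libraries 89.0 and 84.4, Notch-labelled libraries 94.9 and 88.6, doubly activated libraries 93.7 and 100.9, and lymphoma libraries 43.6 and 44.3. Both lymphoma libraries lay below all 8 others, and the other 4 groups lay close together. Against doubly activated libraries, which carry the same alleles, Spi1 was lower in lymphoma by a log2 difference of -1.15 ± 0.11 (SE, n = 2 libraries a group, adjusted p = 2.08e-06, edgeR quasi-likelihood test). Against control the difference was -1.41 ± 0.11 (adjusted p = 2.80e-07). Smaller differences from control were called for the NF-kB-activated group (-0.43 ± 0.10, adjusted p = 0.0137) and for the Notch-labelled group (-0.35 ± 0.10, adjusted p = 0.0102). Both of these are lost when control library 2, the higher control, is left out, at -0.25 (adjusted p = 0.107) and -0.21 (adjusted p = 0.0734). The first is also lost without either NF-kB-activated library and the second without Notch-labelled library 2 or with library size alone as scaling, with adjusted p over the alternatives reaching 0.115 and 0.0856. With an offset for effective transcript length the second was -0.55. In the order control, doubly activated, Notch-labelled, NF-kB-activated, lymphoma, the step to lymphoma was the one between neighbours that passed the test (0.98 ± 0.11, adjusted p = 7.55e-06).

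Macrophages also express Spi1, and 12 macrophage and monocyte markers, among them Csf1r and Cd68, were all detected in every library and summed to 62.5 and 248 CPM in control libraries 1 and 2. Control library 2 was thus the higher for both Spi1 and these markers. Their sum was 136 CPM in each lymphoma library, above the 22.9 to 36.1 CPM of the doubly activated libraries in which Spi1 was higher. In lymphoma against doubly activated libraries Cd68 (log2 2.64), Ccr2 (1.83), Vcam1 (4.21), Mrc1 (2.41) and Cd163 (2.85) rose and the others did not pass, where 26.1% of all tested genes rose. Against control, where library 2 had the higher sum, 1 rose and 6 fell (median -1.47 beside 0.02 over all genes). The 1 was Cd68, a lysosomal gene of macrophages, at 60.0 and 61.1 CPM in lymphoma against 6.82 and 13.3 CPM in control (log2 2.58 ± 0.27, adjusted p = 2.81e-05). The 6 were Adgre1 (-2.38), Cd163 (-2.75), Mrc1 (-2.08), C1qa (-4.64), C1qc (-2.19) and Csf1r (-2.69 ± 0.80, adjusted p = 0.0346), the last at 6.15 and 4.35 CPM in lymphoma against 11.5 and 56.2 CPM in control. The part of macrophages and monocytes in the differences of Spi1 between groups was not tested.

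Irf8 (ENSMUSG00000041515, chr8:120736358-120756694, plus strand) fell in both clonal groups and was level in the other 3. It was at 554 and 646 CPM in control, 598 and 608 CPM in NF-kB-activated and 636 and 558 CPM in doubly activated libraries. Notch-labelled libraries had 381 and 357 CPM and lymphoma libraries 345 and 324 CPM. No Notch-labelled or lymphoma library reached the lowest of the other 6. The log2 difference from control was -0.70 ± 0.09 in Notch-labelled libraries (adjusted p = 3.20e-05) and -0.84 ± 0.09 in lymphoma libraries (adjusted p = 9.84e-06), and lymphoma was lower than doubly activated by -0.83 ± 0.09 (adjusted p = 1.17e-05). NF-kB-activated and doubly activated libraries differed from control by 0.01 ± 0.09 (adjusted p = 0.986) and -0.01 ± 0.09 (adjusted p = 0.989), so that a difference of the size seen in lymphoma lay far outside their errors. All 3 called differences held in every alternative, but with the offset for effective length the Notch-labelled difference was -0.45 (adjusted p = 0.00424, the highest over its alternatives). In bulk RNA, fewer cells of a type and less RNA of a gene in each cell cannot be told apart. Dendritic cell markers, 9 in the list, summed to 219 and 201 CPM in lymphoma, 113 and 133 CPM in Notch-labelled and 28.2 to 87.9 CPM in the other 6 libraries. Bst2 made up most of the Notch-labelled sums (89.1 and 109 CPM), and Cd209a and Clec9a were at 0 in both lymphoma libraries. The part of dendritic cells in the levels of Irf8 was not tested.

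Irf8 was nevertheless the most abundant of the 7 per transcript length. Its mean was 417 TPM (transcripts scaled by length and library) in control, 426 in NF-kB-activated, 329 in Notch-labelled, 402 in doubly activated and 177 in lymphoma libraries. Spi1 followed at 107, 74.5, 78.9, 74.5 and 30.4 TPM in the same order. Cebpb and Id2 came next, at 20.1 and 14.9 TPM in control, with Cebpb above Id2 in the means of 4 groups and below it in Notch-labelled libraries (34.0 against 36.6 TPM). Cebpa, Cebpd and Gfi1 stood below both in the means of all 5 groups, with Cebpa at 0.468 TPM in control and 3.36 TPM in the Notch-labelled libraries in which it was highest. Irf8 and Spi1 together thus made up most of the RNA of the set in every library, including those in which C/EBP genes were raised.

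IRF4 is the closest relative of IRF8, and a high ratio of IRF4 to IRF8 marks plasma cells and activated B cells. The ratio of Irf4 to Irf8 in TPM was 0.190 and 0.132 for the control libraries, 0.137 and 0.153 for NF-kB-activated, 0.516 and 0.543 for Notch-labelled, 0.280 and 0.417 for doubly activated and 1.43 and 1.77 for lymphoma libraries. It exceeded 1 in lymphoma alone, and the groups other than control and NF-kB-activated did not overlap. Irf4 itself rose against control in Notch-labelled (log2 1.33 ± 0.14, adjusted p = 7.39e-06), doubly activated (1.17 ± 0.14, adjusted p = 0.000139) and lymphoma libraries (2.37 ± 0.14, adjusted p = 1.22e-07). Plasma cell markers, 5 in the list, summed to 1850 to 1936 CPM in lymphoma against 276 to 441 CPM in the other 8 libraries, and their part in the ratio was not tested. SPIB is a B cell relative of PU.1, and Spib was above Spi1 per length in every library, by 3.78 to 7.26 times in TPM.

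**Figure D2:**
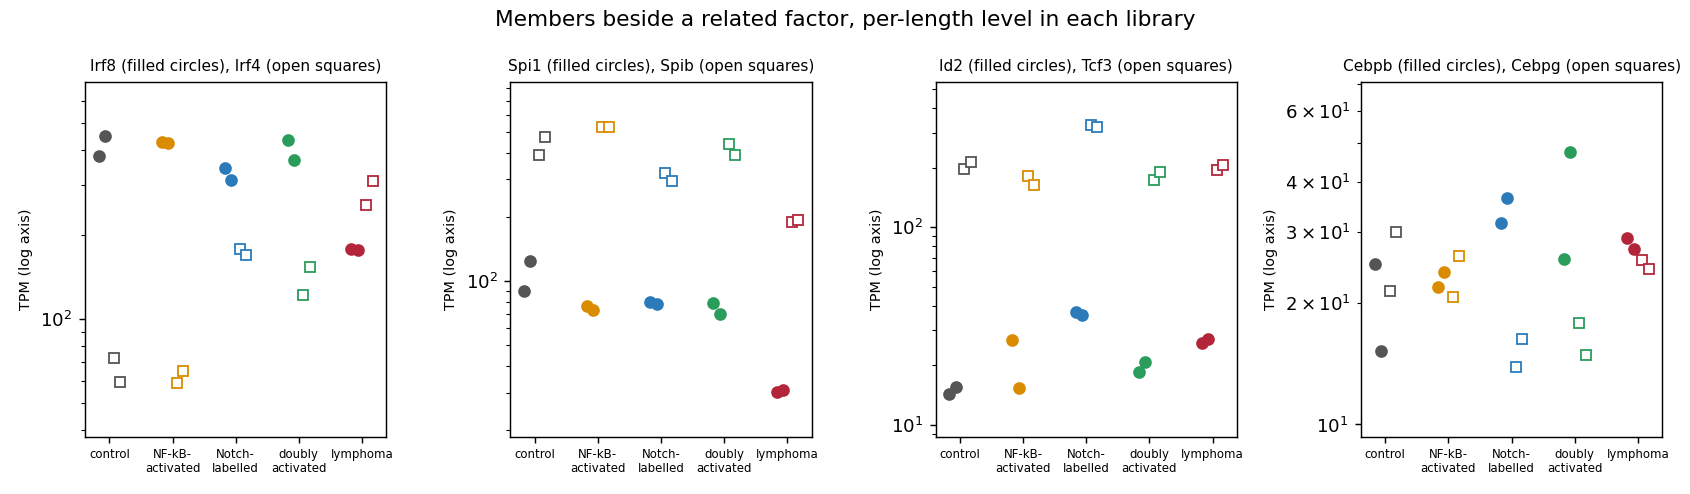
Levels in TPM (log axis) of Irf8 with Irf4, Spi1 with Spib, Id2 with Tcf3 and Cebpb with Cebpg in each library, by group, with filled circles for the first gene and open squares for the second. Irf4 lies below Irf8 in all 8 libraries that are not lymphoma and above it in both lymphoma libraries, at 1.43 and 1.77 times.

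Other ETS and IRF factors did not move as a block. For this list and those that follow, the shares of all tested genes that rose and fell against control were 8.72% and 6.6% with NF-kB activation, 34.2% and 29.5% for the Notch-labelled group, 10.5% and 9.3% with double activation and 27.8% and 25.6% for lymphoma. Of 12 relatives of PU.1 and IRF8, 1 rose and 3 fell in NF-kB-activated against control libraries, with a median log2 difference of -0.08 beside 0.00 over all genes. In Notch-labelled libraries 2 rose and 6 fell (median -0.30 beside 0.07). In doubly activated libraries 3 rose and 1 fell (median -0.06 beside 0.00), and in lymphoma against control 4 rose and 6 fell (median -0.39 beside 0.02). Ets1, an ETS factor of lymphocytes, had a log2 difference from control of -1.58 ± 0.07 in Notch-labelled (adjusted p = 3.83e-09) and of -1.66 ± 0.07 in lymphoma libraries (adjusted p = 2.42e-09). Spic, a relative of PU.1 known from red pulp macrophages and B cells, rose in NF-kB-activated (0.87 ± 0.15, adjusted p = 0.00199), doubly activated (1.09 ± 0.15, adjusted p = 0.000306) and lymphoma libraries (2.30 ± 0.15, adjusted p = 9.14e-08).

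Cebpd (ENSMUSG00000071637, chr16:15887286-15891031, plus strand, 1 exon) showed the widest range of the 7. It was near the limit of detection in control, at 0.307 and 0.435 CPM (5 and 8 counts), and reached 12.99 and 15.2 CPM in Notch-labelled libraries (260 and 307 counts). NF-kB-activated libraries had 1.73 and 1.15 CPM, doubly activated libraries 0.278 and 0.915 CPM, and lymphoma libraries 1.66 and 2.49 CPM. Both Notch-labelled libraries lay above all 8 others, and doubly activated libraries overlapped with control. The log2 difference from control was 5.21 ± 0.50 in Notch-labelled libraries (37.0-fold, adjusted p = 1.88e-06), which held in every alternative. In lymphoma it was 2.45 ± 0.51 against control (adjusted p = 0.00149) and 1.82 ± 0.48 against doubly activated libraries (adjusted p = 0.00735), but the second of these was lost without lymphoma library 2 (adjusted p = 0.0547) or doubly activated library 1 (1.17, adjusted p = 0.0775, the highest over its alternatives), and was 2.87 without doubly activated library 2. The difference of 1.93 ± 0.53 in NF-kB-activated libraries (adjusted p = 0.0276) was lost in 8 of 21 alternatives. These were limma-voom, the compared groups only, the fits without either or both Notch-labelled libraries or without either control library, and that without NF-kB-activated library 1 (adjusted p = 0.166, the highest).

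Cebpa (ENSMUSG00000034957, chr7:35119293-35121928, plus strand, 1 exon) had the same single high group at a lower level. It was at 5.69 and 5.88 CPM in Notch-labelled libraries (114 and 119 counts) against 0.430 and 1.25 CPM in control (7 and 23 counts). NF-kB-activated libraries had 1.52 CPM each, doubly activated libraries 0.668 and 0.0654 CPM (12 and 1 counts), and lymphoma libraries 0.277 and 0.342 CPM (6 and 7 counts). The control, doubly activated and lymphoma libraries overlapped. Notch-labelled libraries exceeded control by a log2 difference of 2.76 ± 0.62 (6.76-fold, adjusted p = 0.0019, called in every alternative) and NF-kB-activated libraries by 1.93 ± 0.58 (adjusted p = 0.0117). In the groups with both alleles no rise of Cebpa was detectable at this depth, with differences from control of -1.14 ± 0.73 in doubly activated (adjusted p = 0.318) and -1.44 ± 0.73 in lymphoma libraries (adjusted p = 0.116).

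Cebpb (ENSMUSG00000056501, chr2:167688915-167690418, plus strand, 1 exon) was the C/EBP gene of the set with the highest level per length in every library. Control libraries had 24.3 and 14.7 CPM, NF-kB-activated libraries 21.1 and 22.7, Notch-labelled libraries 29.5 and 33.6, doubly activated libraries 26.4 and 50.9, and lymphoma libraries 35.6 and 30.7. The doubly activated libraries differed 1.93-fold from each other and the control libraries 1.65-fold, while the other groups differed 1.07-fold to 1.16-fold. Control and doubly activated libraries did not overlap, but their nearest values were close. None of the 8 comparisons passed the edgeR test for Cebpb, with 2 at an unadjusted p under 0.05, while DESeq2 called 4 and limma-voom 2. The nearest were doubly activated against control (log2 0.99 ± 0.33, adjusted p = 0.0864), lymphoma against control (0.77 ± 0.33, adjusted p = 0.0915) and Notch-labelled against control (0.70 ± 0.33, adjusted p = 0.105). With DESeq2 these 3 were among the 4, at adjusted p = 0.00472, 0.0214 and 0.02.

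Cells of other types could bring C/EBP transcripts into a sorted fraction, since neutrophils, macrophages and stromal cells express them. All 13 neutrophil markers were detected in both NF-kB-activated and both Notch-labelled libraries, with sums of 490 and 151 CPM in the first group and 83.3 and 81.7 CPM in the second. Control libraries summed to 9.90 and 27.0 CPM and lacked 7 and 1 of the 13, with Elane, Ly6g and Camp at 0 in the first. Doubly activated libraries summed to 16.9 and 10.5 CPM and lymphoma libraries to 20.99 and 21.7 CPM. Cxcr2 made up most of the sum in control library 1 (9.28 CPM) and doubly activated library 2 (10.1 CPM). In Notch-labelled against control libraries Retnlg, Mpo, Mmp9, Camp and Elane rose. Cxcr2 fell there (log2 -0.50, adjusted p = 0.0438) and the others did not pass. With NF-kB activation Retnlg, Mmp9, Camp, Mpo, Elane, Cxcr2, Mmp8 and Ltf rose against control and the others did not pass. NF-kB-activated library 1 was above library 2 for the neutrophil sum, for Cebpd, for Id2 and, by little, for Spi1. It was below library 2 for Cebpb (21.1 against 22.7 CPM), Gfi1 (1.94 against 2.15 CPM) and Irf8 (598 against 608 CPM). Cebpa was at 1.52 CPM in both. The 7 stromal and endothelial markers summed to 792 and 1006 CPM in Notch-labelled libraries and to 67.0 to 314 CPM in the other 8. Pecam1 made up most of the sum in each of those 8. It was 299.9 of 306 CPM in control library 1 and 58.2 of 70.9 CPM in lymphoma library 1. Against control, Col1a1, Col1a2, Col3a1, Dcn and Pdpn rose in Notch-labelled libraries. Pecam1 fell there (log2 -0.88 ± 0.08, adjusted p = 8.35e-07) and Cdh5 did not pass (0.18 ± 0.30, adjusted p = 0.614). Dcn, a fibroblast gene, was at 5.69 and 8.35 CPM in Notch-labelled libraries and at 0 in all others. The 13 T, NK and innate lymphoid markers summed to 109 and 130 CPM in Notch-labelled libraries and to 12.7 to 43.9 CPM elsewhere. Of the 11 of these that could be tested, 6 rose against control in Notch-labelled libraries, led by Trbc2 (2.55) and Trbc1 (3.36), while Cd4 fell (-1.02, adjusted p = 0.0380) and Cd3d, Cd3g, Il7r and Klrb1c did not pass. The part of such cells in the levels of Cebpd and Cebpa was not tested.

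**Figure D3:**
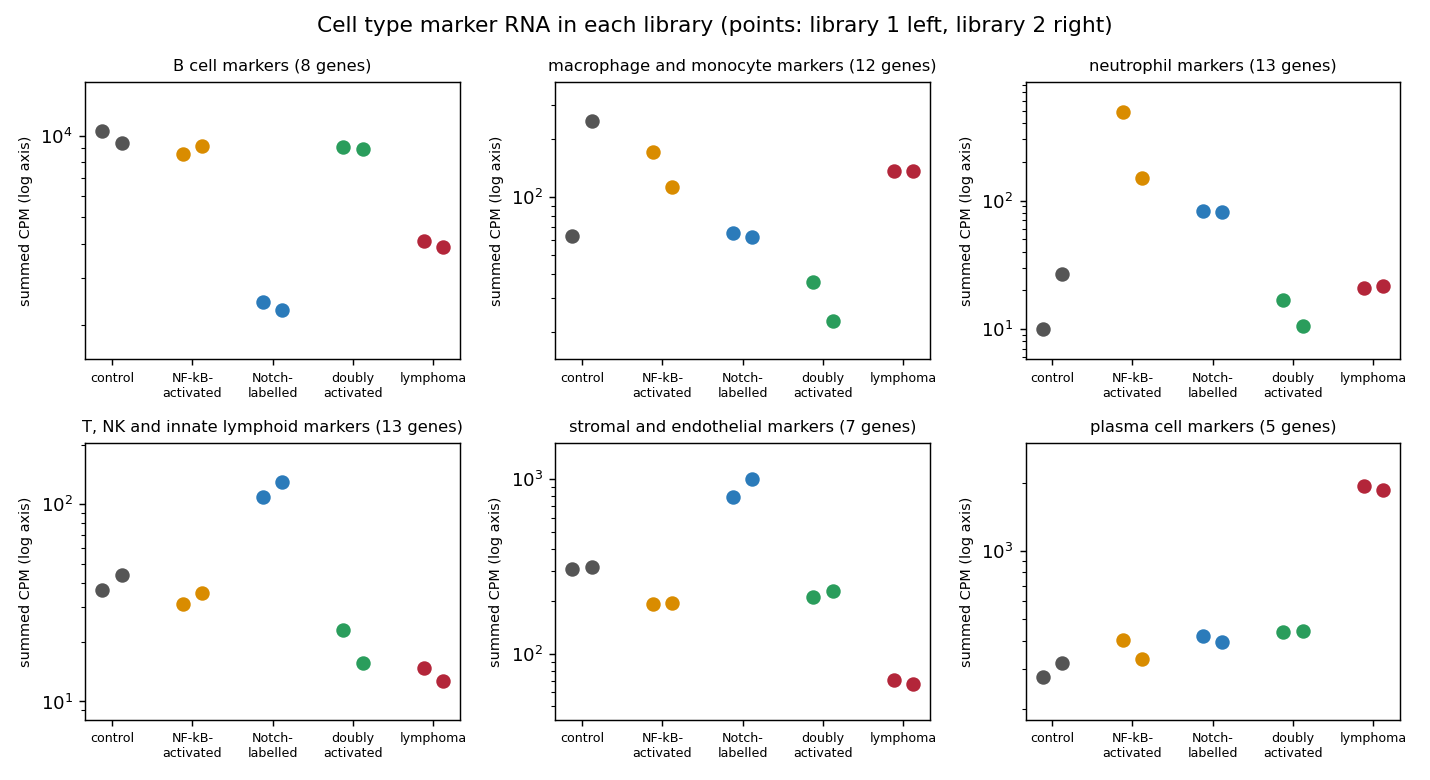
Summed level in CPM (log axis) of marker lists of B cells, macrophages, neutrophils, stromal cells, T, NK and innate lymphoid cells and plasma cells in each library, by group, as points. Notch-labelled libraries are lowest for B cell markers and highest for stromal markers, and NF-kB-activated libraries are highest for neutrophil markers.

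The partners and relatives of the C/EBP factors are leucine zipper proteins that pair with them or compete for their sites. Of 7 such genes none rose or fell in NF-kB-activated libraries (median log2 difference -0.07 beside 0.00 over all genes). By edgeR 2 of these 7 had an unadjusted p under 0.05, the nearest being Atf4, an amino acid stress factor (-0.59 ± 0.17, adjusted p = 0.0532), while DESeq2 and limma-voom each called 1. In Notch-labelled libraries 2 rose and 2 fell (median 0.86 beside 0.07), in doubly activated libraries 2 rose and 1 fell (median 0.26 beside 0.00), and in lymphoma 3 rose against control (median 0.76 beside 0.02). Nfil3, a zipper factor that innate lymphoid cells need, rose in all 3 groups that carry the Notch2 allele. It was at 0.983 and 1.74 CPM in control, 16.7 and 18.5 CPM in Notch-labelled, 9.18 and 15.4 CPM in doubly activated and 24.2 and 21.7 CPM in lymphoma libraries, but at 1.05 and 1.57 CPM in NF-kB-activated libraries. Its log2 differences from control were 3.67 ± 0.32, 3.15 ± 0.32 and 4.05 ± 0.32 in those 3 groups (adjusted p = 8.82e-07, 2.92e-05 and 4.84e-07). Cebpg, a partner without an activation domain, was lower than control in Notch-labelled (-0.88 ± 0.14, adjusted p = 0.000132) and doubly activated libraries (-0.51 ± 0.14, adjusted p = 0.0207). The ratio of Cebpg to Cebpb in TPM was 0.4401 and 0.4472 for Notch-labelled libraries, 0.693 and 0.314 for doubly activated libraries and 0.856 to 1.98 for the other 6.

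Id2 (ENSMUSG00000020644, chr12:25093799-25097140, minus strand) rose in Notch-labelled and lymphoma libraries. Control libraries had 11.4 and 12.4 CPM, NF-kB-activated libraries 21.3 and 12.04, Notch-labelled libraries 28.6 and 27.4, doubly activated libraries 15.6 and 18.4, and lymphoma libraries 26.3 and 25.1. The 4 Notch-labelled and lymphoma libraries lay above the other 6. Against control the log2 difference was 1.23 ± 0.21 in Notch-labelled (adjusted p = 0.000358) and 1.11 ± 0.21 in lymphoma libraries (adjusted p = 0.00102), and both held in every alternative. Doubly activated libraries lay above control without overlap, but the difference of 0.51 ± 0.22 did not pass (adjusted p = 0.136). Lymphoma exceeded doubly activated libraries by 0.60 ± 0.21 (adjusted p = 0.0322), a call lost when any 1 of these 4 libraries was left out (adjusted p up to 0.187).

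The E protein gene Tcf3 stayed far above Id2 in RNA. Tcf12, another E protein gene, was nearer, at 32.6 and 43.3 TPM in lymphoma libraries against 26.1 and 27.1 TPM for Id2. Id3, another ID gene, was above Id2 in control (means of 55.3 and 14.9 TPM) and below it in doubly activated libraries (16.9 and 19.6 TPM). Tcf3, the gene of E2A, exceeded Id2 in TPM by 13.8 and 13.7 times in control, by 8.90 and 8.93 times in Notch-labelled, by 9.41 and 9.17 times in doubly activated and by 7.44 and 7.64 times in lymphoma libraries. The ratio was lower in both libraries of those 3 groups than in control. NF-kB-activated libraries had ratios of 6.78 and 10.6. Of the 6 other ID and E protein genes, 1 rose in NF-kB-activated, 3 in Notch-labelled and 2 in lymphoma against control libraries with none falling, and in doubly activated libraries 1 rose and 1 fell. Their median log2 differences were 0.00, 0.38, 0.34 and 0.19 in that order, beside 0.00, 0.07, 0.02 and 0.00 over all genes. Tcf3 rose in Notch-labelled libraries together with Id2 (0.64 ± 0.10, adjusted p = 0.000103), Tcf4 (E2-2) rose in lymphoma (1.42 ± 0.10, adjusted p = 1.85e-07), and Id3 was lower in doubly activated libraries than in control (-1.59 ± 0.15, adjusted p = 1.69e-05). Id1, an ID gene common in stromal and progenitor cells, was at 12.4 and 16.6 CPM in Notch-labelled libraries and at or under 0.488 CPM in the other 8, the same libraries that had the high stromal sum.

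Gfi1 (ENSMUSG00000029275, chr5:107716657-107726036, minus strand) was the regulator that separated doubly activated from NF-kB-activated libraries. It was at 2.15 and 3.43 CPM in control, 1.94 and 2.15 CPM in NF-kB-activated, 19.3 and 17.1 CPM in Notch-labelled, 4.23 and 9.42 CPM in doubly activated and 3.28 and 3.76 CPM in lymphoma libraries. Both Notch-labelled libraries lay above all others, and both doubly activated libraries above control, NF-kB-activated and lymphoma libraries. The log2 difference from control was 2.70 ± 0.36 in Notch-labelled libraries (6.48-fold, adjusted p = 3.32e-05), and this call held in every alternative. Doubly activated libraries exceeded control by 1.28 ± 0.36 (adjusted p = 0.0262) and NF-kB-activated libraries by 1.73 ± 0.37 (adjusted p = 0.00909). These rest on doubly activated library 2, without which the difference from control was 0.60 (adjusted p = 0.352, the highest over its alternatives) and that from NF-kB-activated libraries 1.05 (adjusted p = 0.122, likewise the highest). The first was also lost without control library 1, with limma-voom (adjusted p = 0.0800), with the compared groups only (adjusted p = 0.102) and with the length offset (0.77, adjusted p = 0.279). The second was also lost without either NF-kB-activated library and with the length offset (adjusted p = 0.0811). In lymphoma Gfi1 was lower than in doubly activated libraries by -0.95 ± 0.35 (adjusted p = 0.0386), a call lost in 8 of 21 alternatives, among them the fits without either lymphoma library, without either or both Notch-labelled libraries and without doubly activated library 2 (-0.27, adjusted p = 0.563, the highest). It did not differ detectably from control (0.33 ± 0.36, adjusted p = 0.475).

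GFI1 represses through the LSD1 and HDAC complex. Of 7 genes for its relative GFI1B and for corepressors, 6 rose and none fell in Notch-labelled libraries (median 0.82 beside 0.07 over all genes), where 34.2% of all genes rose, and 0 were called in NF-kB-activated libraries (median -0.09 beside 0.00), where 15.3% of all genes were called in either direction. The 0 is edgeR's, with 1 of the 7 at an unadjusted p under 0.05, beside 1 called by DESeq2 and 0 by limma-voom. In doubly activated libraries 1 rose (median 0.03 beside 0.00), and in lymphoma 2 rose and 2 fell against control (median 0.11 beside 0.02). Kdm1a, the gene of LSD1, was at 142 and 139 CPM in Notch-labelled libraries against 76.0 and 77.2 CPM in control (log2 0.88 ± 0.09, adjusted p = 2.52e-06). Cbfa2t3, the gene of the corepressor ETO2, rose in Notch-labelled (1.18 ± 0.12, adjusted p = 4.52e-06), doubly activated (0.45 ± 0.12, adjusted p = 0.0218) and lymphoma libraries (0.91 ± 0.12, adjusted p = 5.79e-05) against control.

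Estimated transcript shares also differed for Gfi1 and Irf8, although a short-read estimate divides shared exons by a model and no test was made. Gfi1-202, a coding transcript with 7 exons, was estimated at 36.6% and 42.9% of Gfi1 counts in Notch-labelled and 28.5% and 26.5% in doubly activated libraries. In the remaining 6 libraries the share was 0 or near 0 in 4 and 14.5% and 23.7% in the others, at low totals. Irf8-201, the main coding transcript with 9 exons, took 72.1% and 76.5% of Irf8 counts in Notch-labelled libraries and 84.7% to 90.0% in the other 8. The share of Irf8-205, another coding transcript with 9 exons, was 14.9% and 11.4% in Notch-labelled libraries and 2.65% to 5.65% elsewhere.

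**Figure D4:**
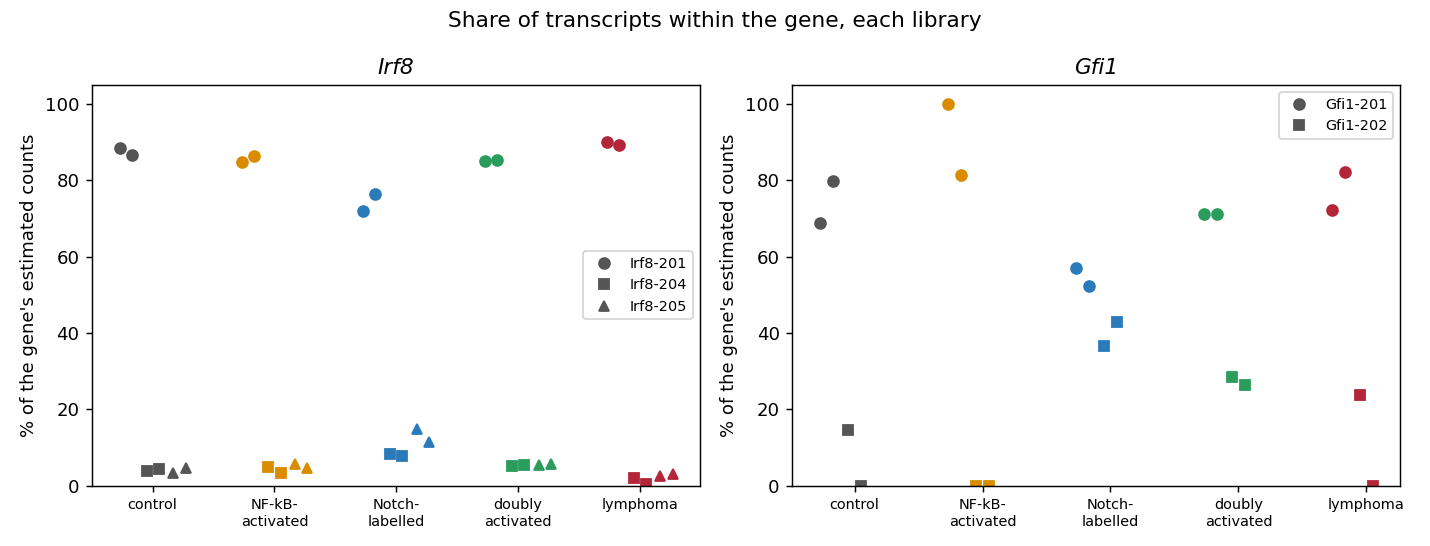
Estimated share in percent of the main transcripts in the counts of Irf8 (Irf8-201, Irf8-204, Irf8-205) and Gfi1 (Gfi1-201, Gfi1-202), as points for each library by group. In Notch-labelled libraries Irf8-201 is at 72.1% and 76.5%, below the other 8 libraries.

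Set side by side by comparison, the calls followed how many genes moved in all. In NF-kB-activated against control libraries 2 of the 7 were called, Spi1 downward and Cebpd upward, where 15.3% of all tested genes were called. In Notch-labelled against control libraries 6 of 7 were called, with Cebpd, Cebpa, Gfi1 and Id2 up and Irf8 and Spi1 down, where 63.7% of all genes were called. The median of the 7 was 1.23 there beside 0.07 for all genes. In doubly activated against control libraries 1 of 7 was called, Gfi1, against 19.8% of all genes. For 7 genes, counts of 2, 6 and 1 lie near those backgrounds and are no result about the set. The 3 comparisons share the control libraries.

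Against the single activations, doubly activated libraries differed from NF-kB-activated libraries in Gfi1 alone, 1 of 7 where 13.9% of all genes were called. Against Notch-labelled libraries 5 of 7 were called where 64.2% of all genes were. Cebpd was lower by -4.58, Cebpa by -3.90, Gfi1 by -1.42 and Id2 by -0.72 on the log2 scale in doubly activated libraries, and Irf8 was higher by 0.70 (adjusted p = 3.67e-06, 0.000301, 0.00261, 0.0100 and 3.49e-05). Without doubly activated library 1 the values were -6.30 for Cebpa and -0.91 for Gfi1. The call for Id2 was lost without doubly activated library 1 (adjusted p = 0.0982, the highest over its alternatives). Lymphoma against doubly activated libraries gave 5 of 7 calls where 51.3% of all genes were called, with Spi1, Irf8 and Gfi1 down and Cebpd and Id2 up. Lymphoma against control gave 4 of 7 where 53.4% of all genes were called, with Spi1 and Irf8 down and Id2 and Cebpd up. Between the clonal groups, lymphoma libraries were lower than Notch-labelled libraries in 4 of 7, where 63.2% of all genes were called. These were Cebpa (-4.20), Cebpd (-2.76), Gfi1 (-2.37) and Spi1 (-1.06) on the log2 scale, with adjusted p of 0.000201 and below.

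**Figure D5:**
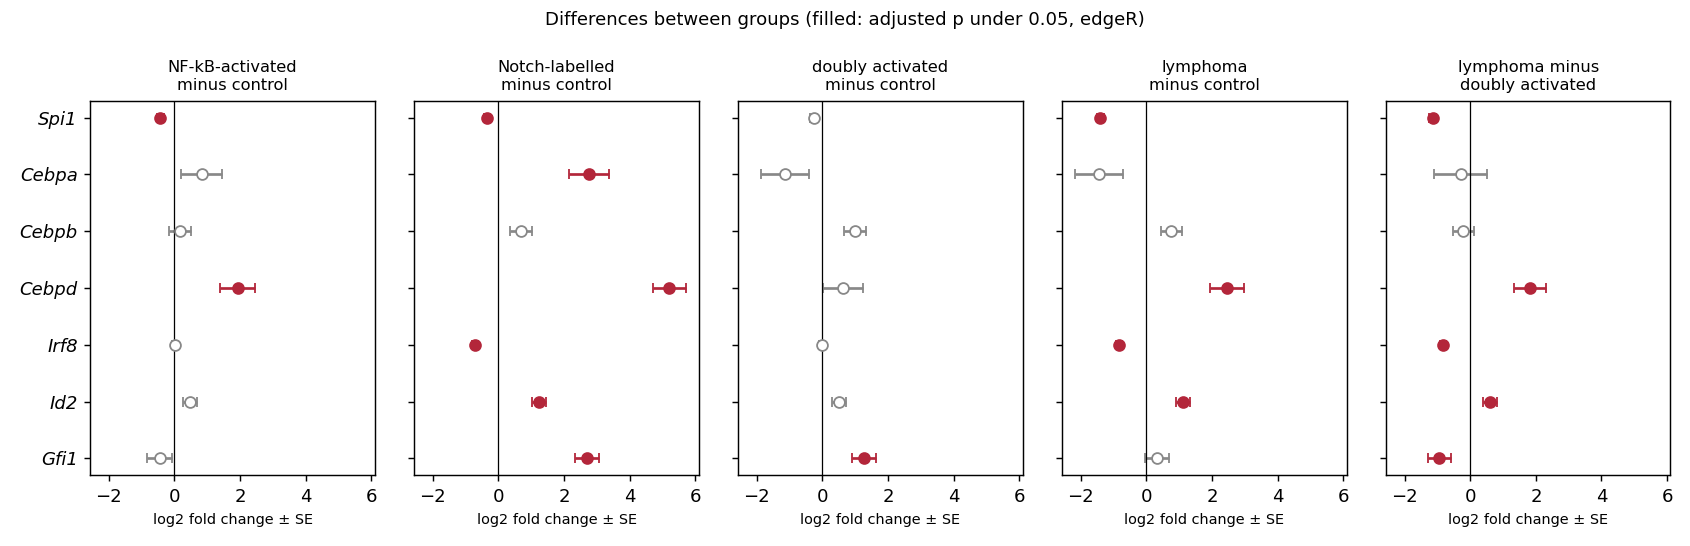
Log2 difference of each of the 7 regulators in 5 comparisons (each group against control, and lymphoma against doubly activated libraries), as points with bars of 1 SE, filled where the adjusted p was under 0.05. In Notch-labelled against control libraries Cebpd lies at 5.21, and in lymphoma against doubly activated libraries Spi1 lies at -1.15.

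A test of whether the change with both alleles differs from the sum of the single changes called 5 of the 7, where 49.5% of all genes were called. Cebpd was below that sum by a log2 difference of -6.51 ± 0.70 (adjusted p = 1.19e-05), Cebpa by -4.73 ± 0.93 (adjusted p = 0.0011) and Id2 by -1.21 ± 0.30 (adjusted p = 0.00594). Irf8 was above it by 0.69 ± 0.13 (adjusted p = 0.000924) and Spi1 by 0.51 ± 0.15 (adjusted p = 0.0109). The Spi1 call is lost with library size alone as scaling (0.34, adjusted p = 0.0692, the highest over its alternatives) and without Notch-labelled library 2 (adjusted p = 0.0537). For Cebpd, Cebpa, Id2 and Irf8 the group apart from the other 3 was the Notch-labelled one, so these values rest on the 2 libraries whose cell type label, V segment and markers differ from the rest. For Spi1 control was the highest group. Cebpa was -7.13 without doubly activated library 1 and Id2 -0.71 without NF-kB-activated library 1 in this test. Scaling by library size alone shifts the median of all genes in this test to -0.22 from -0.05.

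Genes that PU.1 or C/EBP factors are known to control in myeloid cells rose or did not pass in NF-kB-activated libraries and went in both directions in the other groups. Of 24 such genes 8 rose and none fell in NF-kB-activated libraries (median 0.63 beside 0.00 over all genes). The 8 were Csf2rb, Csf2ra, Cd33, Sirpa, Mpo, Elane, Ctsg and Lyz1, of which Mpo and Elane are also in the neutrophil marker list whose sum was highest in that group. The part of neutrophil RNA in the rise of the 8, also of those outside that marker list, was not tested. Against control 8 rose and 4 fell in Notch-labelled libraries (median 0.47 beside 0.07). In doubly activated libraries 4 rose and 4 fell (median -0.71 beside 0.00), and in lymphoma against control 4 rose and 7 fell (median -0.82 beside 0.02). Csf2rb, the shared receptor chain for GM-CSF and IL-3, rose in all 4 groups against control. It was at 59.6 and 53.2 CPM in control and at 459 and 470 CPM in lymphoma libraries (log2 3.04 ± 0.14, adjusted p = 1.31e-08). Ncf4, an NADPH oxidase subunit that B cells also express, fell in Notch-labelled (-0.67 ± 0.10, adjusted p = 0.000108) and lymphoma libraries (-1.19 ± 0.10, adjusted p = 1.16e-06). Cd33, a myeloid sialic acid receptor, rose in NF-kB-activated (2.69 ± 0.53, adjusted p = 0.00417) and doubly activated libraries (2.86 ± 0.53, adjusted p = 0.00236). Mpo, a granule gene of neutrophil precursors, was at 15.9 and 2.46 CPM in NF-kB-activated libraries, high in the library with the higher neutrophil sum, and at 0.123 and 0.326 CPM in control.

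Of 15 inflammatory and granule genes known as C/EBP targets, 12 could be tested. In NF-kB-activated libraries 2 rose, Camp and Ltf, both among the 6 genes that this list shares with the neutrophil markers. The median log2 difference of the 12 was 4.70 there beside 0.00 over all genes, and 8.72% of all genes rose. In Notch-labelled libraries 3 of 12 rose (median 2.99 beside 0.07), a share below the 34.2% of all genes that rose. In doubly activated libraries 1 rose and 1 fell, and in lymphoma 1 rose against control (median 0.23 beside 0.02), where 27.8% of all genes rose. No median is given for doubly activated libraries, where it was negative. Camp and Ptx3 were at 0 there, but counts of 0 also lie under the medians given. Control library 1 had Camp, Ngp, Lcn2 and S100a8 at 0. In doubly activated against control libraries most of the 12 had negative values, such as Lcn2 (-2.77), Ngp (-1.96) and S100a9 (-1.61), which did not pass. Il1b (-2.81) was the 1 that fell and Arg1 (4.10) the 1 that rose, and Saa3 (1.47) was also positive. Ptgs2, the gene of cyclooxygenase 2, was at 49.7 and 68.9 CPM in Notch-labelled libraries and at or under 0.184 CPM in the other 8. Ptx3, an acute phase gene, was at 3.65 and 5.83 CPM there and at 0 in the other 8. Fibroblasts express both genes, and the stromal sum was highest in the same 2 libraries. The part of stromal cells in the levels of Ptgs2 and Ptx3 was not tested. In lymphoma against doubly activated libraries none of the 12 was called by edgeR (lowest adjusted p = 0.0531, with 2 at an unadjusted p under 0.05) or by limma-voom, and 2 by DESeq2.

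Other transcription factors of myeloid cells, 15 in the list, went in both directions. In NF-kB-activated libraries 1 rose and 2 fell (median 0.16 beside 0.00 over all genes), in Notch-labelled libraries 2 rose and 4 fell (median -0.42 beside 0.07), in doubly activated libraries 5 rose and 3 fell (median -0.04 beside 0.00), and in lymphoma 3 rose and 8 fell against control (median -1.18 beside 0.02). Myb, a factor of progenitors, rose in the 3 groups with the Notch2 allele, from 14.0 and 10.8 CPM in control to 97.7 and 109 CPM in Notch-labelled, 81.3 and 83.4 CPM in doubly activated and 88.1 and 95.4 CPM in lymphoma libraries. Zbtb46, known from dendritic cells, was at 39.5 and 41.8 CPM in NF-kB-activated and 27.4 and 30.2 CPM in doubly activated libraries against 1.60 and 3.15 CPM in control. Runx1, a partner of PU.1 in blood cells, fell with Spi1 in lymphoma (-1.85 ± 0.08 against control, adjusted p = 3.17e-09).

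Of 10 B lineage factors 1 rose and 8 fell in Notch-labelled libraries (median -1.06 beside 0.07), where 29.5% of all genes fell, 3 rose and 6 fell in lymphoma (median -0.75 beside 0.02), where 25.6% of all genes fell, 1 rose and 4 fell in NF-kB-activated libraries (median -0.21 beside 0.00) and 1 rose and 3 fell in doubly activated libraries (median -0.15 beside 0.00), each against control. The 1 that rose in Notch-labelled libraries was Pax5 (0.64 ± 0.17, adjusted p = 0.00982), and Ikzf1 did not pass there (0.13 ± 0.10, adjusted p = 0.265). In lymphoma Pax5 fell (-1.27 ± 0.18, adjusted p = 0.000266). Ebf1, which sets up B cell identity, was at 350 and 313 CPM in control, 45.0 and 46.9 CPM in Notch-labelled and 223 and 243 CPM in lymphoma libraries. Bach2, a repressor of plasma cell and myeloid genes, was at 190 and 265 CPM in control, 9.74 and 10.8 CPM in Notch-labelled and 5.83 and 8.06 CPM in lymphoma libraries. Doubly activated libraries lay between, at 87.9 and 62.1 CPM (-1.60 ± 0.22 against control, adjusted p = 0.00171).

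As a description over the 10 libraries, which share groups and the contrast of the clonal libraries with the rest, the closest pairs within the set were Irf8 with Id2 (Pearson r = -0.828 of log2(CPM + 1)), Cebpa with Cebpd (r = 0.824) and Cebpd with Gfi1 (r = 0.788). Of 10844 genes ranked, the pattern of Spi1 was closest to Runx1 (r = 0.986), Trim14 (0.985) and Ppp4r1 (0.984). Irf8 was closest to Cnp (0.993), Zfp607a (0.993) and Arap1 (0.988). Cebpa was closest to Ifitm2 (0.986), Timp2 (0.985) and Parp12 (0.985), and Cebpd to Kcns1 (0.984), Kif3a (0.983) and Robo1 (0.982). Cebpb was closest to Gpt (0.935), Eci2 (0.917) and Odc1 (0.908), Id2 to Glb1 (0.968), Mfsd13a (0.950) and Cbfa2t3 (0.946), and Gfi1 to Nedd8 (0.992), Timm13 (0.975) and Siah1b (0.968).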

How the data were processed

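RNA sequencing of 10 libraries in 5 groups of 2 was read. The authors deposited, per library, estimated counts of 88198 transcripts, not normalized per the file headers and the values themselves, and TPM made from these. Tool and build, from the submitters' processing notes, were kallisto 0.44.0 and mm10, with no transcript release stated there. Here 86031 transcripts were matched to GENCODE M21 (GRCm38, positions from 1) and summed to 30205 genes; the 2167 unmatched held 1.09% to 1.38% of counts. Rounded gene counts were tested with edgeR 4.0.16 (R 4.3.3): filterByExpr (minimum count 10, minimum total 15), TMM, 1 robust quasi-likelihood model of all libraries with 5 residual degrees of freedom, Benjamini-Hochberg over 15583 genes, two-sided, called at 0.05. CPM are TMM-scaled, with mean and SD over 2 libraries. Libraries of 1 group differed by 4.36 to 20.8 in chi-square over its degrees of freedom, more than counting error gives.

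The members and lists were chosen with earlier results of these data known. Of each list, up to 4 tested genes with the smallest p in a comparison could be named, with the 3 genes closest to each member by correlation. Values of single libraries for Map3k14, Notch2, Heyl, Ddx3y and the V segments and the overlap of lists were chosen after their values were seen. So were Pax5, Ikzf1, the macrophage, neutrophil, T cell, stromal and mast cell markers named with a direction, and the dendritic cell sums. The TPM values of Tcf12, Id3 and Gfi1 and the C/EBP targets named for doubly activated libraries were also chosen after they were seen. The script was tested on simulated data. Alternatives were other scalings, filters, DESeq2 1.42.0, limma-voom (limma 3.58.1), a fit of the compared groups, an effective length offset, a replicate block, receptor segments or Notch-labelled libraries left out, and each library left out.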

Additional observations from a re-analysis of the deposited data

Results flagged for a closer look

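For 5 of the 7 regulators the change with both alleles differed from the sum of the changes with each allele alone, in a test of that difference itself over 10 libraries (edgeR, adjusted over 15583 genes). In the same test 49.5% of all tested genes were called, so the count of 5 is no result about the set. The log2 differences were 0.51 for Spi1 (adjusted p = 0.0109), 0.69 for Irf8 (adjusted p = 0.000924), -1.21 for Id2 (adjusted p = 0.00594), -4.73 for Cebpa (adjusted p = 0.0011) and -6.51 for Cebpd (adjusted p = 1.19e-05). The Spi1 call was lost with library size alone as scaling (0.34, adjusted p = 0.0692) and without Notch-labelled library 2 (0.46). The Notch-labelled libraries are labelled as another cell type than the other 3 groups of this test, so allele and cell type cannot be told apart.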

How the results depend on the processing

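Of 29 called differences of single members, 19 were called under every one of up to 21 alternatives. Over all members 41 calls were lost and 26 gained, and 25 values changed sign, 0 of them of a called difference. Members called in NF-kB-activated against control libraries (2) became 1 with limma-voom or without both Notch-labelled libraries and 0 with the compared groups only; doubly activated against control (1) became 2 with library size alone or DESeq2 and 0 with limma-voom, the length offset or the compared groups only, the last with 1984 genes called in all against 3090; doubly activated against NF-kB-activated (1) became 2 with DESeq2 and 0 with the length offset, with 1394 genes against 2165. Leaving out each library in turn gave 0 to 2, 0 to 3 and 0 to 3 members and 1435 to 2291, 1624 to 3081 and 725 to 2800 genes in these comparisons, and 2 to 5 members in lymphoma against doubly activated; the cause was not tested beyond fewer samples.

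Values that changed sign were, for Irf8, -0.0197 with RLE and -0.0198 with DESeq2 and -0.0048 without receptor segments in NF-kB-activated against control, and with the length offset 0.0425 and 0.033 in doubly activated against control and NF-kB-activated. Library size alone gave -0.0471 for Id2 in doubly activated against NF-kB-activated, -0.0904 for Spi1 in doubly activated against Notch-labelled and -0.0612 for Cebpb in the test of both alleles against the sum (limma-voom -0.0363). Cebpa in lymphoma against doubly activated was 0.27 with limma-voom, and Gfi1 in lymphoma against control -0.14 with the length offset. With 1 library left out, NF-kB-activated against control gave -0.10 to 0.13 for Irf8 and -0.15 to 0.57 for Cebpb, and doubly activated against control -0.12 to 0.10 for Irf8 and -0.41 to 1.27 for Cebpd. Doubly activated against NF-kB-activated gave -0.12 to 0.0777 for Irf8 and -0.34 to 0.49 for Id2, and against Notch-labelled -0.25 to 0.73 for Cebpb. Lymphoma against doubly activated gave -1.10 to 2.13 for Cebpa and -0.63 to 0.32 for Cebpb, and the test of both alleles -0.42 to 0.56 for Cebpb.

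Replicate numbers did not pair the libraries (r = -0.107 to 0.086 over 10374 genes), and with the replicate block 2100 genes were called in NF-kB-activated and 2794 in doubly activated against control. Library size alone moved the rises, as a share of calls, from 53.1% to 41.7% in doubly activated against control, from 47.6% to 34.0% against NF-kB-activated and from 48.3% to 38.1% in the test of both alleles. Low counts of Cebpa and Cebpd limit what could be seen in control, doubly activated and lymphoma libraries.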

Other observations

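Of 5 mast cell and basophil markers, Cpa3 was at 10.5 and 15.5 CPM in Notch-labelled libraries, where Fcer1a was at 0, and the list summed to 1.89 CPM or less in the other 8 libraries. Cpa3 made up most of the list's sum in the Notch-labelled libraries (11.3 and 15.9 CPM). Ms4a2, another marker of the list, fell there against control (log2 -1.61 ± 0.66, adjusted p = 0.0488). Gata2, a factor of mast cells, endothelium and progenitors, was called higher in Notch-labelled libraries than in control (adjusted p = 0.000481).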
